A study of Glycine max with 10 samples.

Results

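Gibberellin is perceived by GID1, a soluble receptor, and the signal is passed on by SLEEPY1 (SLY1), the F-box subunit of an SCF ubiquitin ligase. The hormone-bound receptor takes hold of DELLA proteins, the repressors of gibberellin responses, and SLY1 then marks them for destruction by the proteasome. In *Arabidopsis* seeds this removal of DELLA proteins allows the embryo to grow, and abscisic acid works against it. The receptors of dicots form a GID1B clade and a clade that holds GID1A and GID1C.

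The 9 soybean genes described here are 5 GID1 genes (3 of GID1B and 2 of GID1C) and 4 SLY1 genes, taken by identifier from the 54154 genes with values. They were singled out by the study, in part for the patterns shown here, so their levels are a description and carry no test. RNA came from embryonic axes, the part of the embryo that becomes root and shoot, of *Glycine max* cultivar BRS 284. Axes were taken from dry seeds, not imbibed (0 h), and from seeds kept on wet cotton at 28 ºC for 3, 6, 12 or 24 h, written as HAI (hours after imbibition) in the plots. Each of the 5 time points had 2 libraries, 10 in all, each from pooled seeds. By their labels the groups differed in time after imbibition alone. Imbibed seeds were in a growth chamber with a daily light and dark cycle. Dry and imbibed axes therefore also differed in water and may have differed in temperature and light.

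Transcription is given as FPKM, the authors' measure of fragments per length of transcript scaled to the mapped reads of a library, and their table merges both libraries of a time point into 1 value per gene. No FPKM therefore has an error, no change can be judged by the scatter of replicates, and neighbours in an order of levels cannot be said to differ. How many reads stand behind each FPKM is unknown. A gene was counted as risen or fallen when its FPKM changed at least 2.4-fold and the higher value reached 1 FPKM. Since RNA of whole axes was sequenced, fewer cells of a type and less RNA per cell cannot be told apart. FPKM summed over all genes went from 1032950 in dry seeds to 544019 at 12 h and 596044 at 24 h, and the 100 highest genes held 30.2% of it in dry seeds and 12.4% at 24 h.

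All 9 genes reached 1 FPKM at some time point and 6 of them did at every time point. None had entries on both strands, none overlapped another gene of the table, and none shared all its values with another gene. Cufflinks, which the authors ran with default parameters to obtain FPKM, splits a read that maps to several places evenly among them, and values of near-identical paralogs are uncertain to that extent.

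The 3 GID1B genes were abundant in dry seeds and lower at each later time point. Glyma10g02790, on chromosome 10 from 1989107 to 1991974 in version 1.1 of the genome, had 85.7, 53.4, 32.2, 19.2 and 6.89 FPKM at 0, 3, 6, 12 and 24 h. It was the highest of the 9 genes until 12 h, and at 24 h it stood under 2 SLY1 genes and both GID1C genes. Glyma02g17010, on chromosome 2 from 15348422 to 15351210, had 53.9, 38.3, 21.7, 13.1 and 3.36 FPKM at the same time points. Glyma03g30460, on chromosome 3 from 38417462 to 38420087, had 39.3, 23.8, 14.4, 10.5 and 4.24 FPKM. Its value lay under that of Glyma02g17010 until 12 h and over it at 24 h.

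Between dry seeds and 24 h the 3 GID1B genes fell, as did 21.7% of the 33358 genes that reached 1 FPKM at some time point. Glyma02g17010 was 16.0 times lower at 24 h, Glyma10g02790 12.4 times and Glyma03g30460 9.28 times. On the log2(FPKM + 1) scale, which understates the change of low genes, their changes were -3.65, -3.46 and -2.94. The median over all expressed genes was 0.39 on that scale, and 10% of these genes lay under -1.98. The size of the fall depended on the scaling: with each time point set to the same total FPKM the ratio for Glyma10g02790 was 7.17, and with median-ratio scaling it was 17.0.

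The decline of the GID1B genes was spread over the whole period. At 3 h the 3 genes had 60.6% to 71.1% of their dry values, at 6 h 36.7% to 40.2%, at 12 h 22.4% to 26.7% and at 24 h 6.24% to 10.8%. In the first 3 intervals their ratios, as deposited, stayed between 1.37 and 1.77, so none of the 3 fell by the 2.4-fold limit. Of expressed genes, 1.32% fell from 0 to 3 h, 0.698% from 3 to 6 h and 3.24% from 6 to 12 h. The step ratios and the percents of the dry values depended on the scaling. From 0 to 3 h Glyma10g02790 went from 106.9 to 50.5 with median-ratio scaling and from 61.4 to 47.2 with equal totals. From 12 to 24 h all 3 fell, by 2.79-fold in Glyma10g02790, 2.48-fold in Glyma03g30460 and 3.90-fold in Glyma02g17010, as did 9.13% of expressed genes. That last interval is also the longest. With a 3-fold limit only Glyma02g17010 fell there, and with 1 FPKM added to both values Glyma03g30460 no longer passed the 2.4-fold limit. A value lower at every time point than at the one before, in the 3 GID1B genes, was found for 13.8% of expressed genes.

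Both GID1C genes were low in dry seeds and higher at each later time point. Glyma20g37430, on chromosome 20 from 45326928 to 45329611, had 0.791, 2.31, 4.38, 6.91 and 8.51 FPKM at 0, 3, 6, 12 and 24 h. Glyma10g29910, on chromosome 10 from 38656639 to 38659469, had 1.31, 2.14, 5.17, 6.10 and 9.33 FPKM. The order of the pair changed from each time point to the next, with ratios of Glyma20g37430 to Glyma10g29910 between 0.601 and 1.13.

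Glyma20g37430 was 10.8 times as high at 24 h as in dry seeds and Glyma10g29910 was 7.09 times as high, so both rose, as did 38.5% of expressed genes. The log2(FPKM + 1) changes of 2.41 and 2.16 lay inside the middle range of expressed genes, of which 10% lay above 2.57. These ratios rest on dry values near 1 FPKM, and after quantile normalization they were 4.95 and 3.86, and with equal totals 18.7 and 12.3. The largest ratios came in the first intervals. Glyma20g37430 rose 2.92-fold from 0 to 3 h, where 11.5% of expressed genes rose, and Glyma10g29910 rose 2.41-fold from 3 to 6 h, where 6.01% did. Neither of these steps passed the limit after quantile normalization or with 1 FPKM added to both values. In the later intervals neither gene passed it, beside 7.53% of expressed genes that rose from 6 to 12 h and 16.4% from 12 to 24 h. An increase at every step, as in both GID1C genes, was found for 18.3% of expressed genes.

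**Figure D1:**
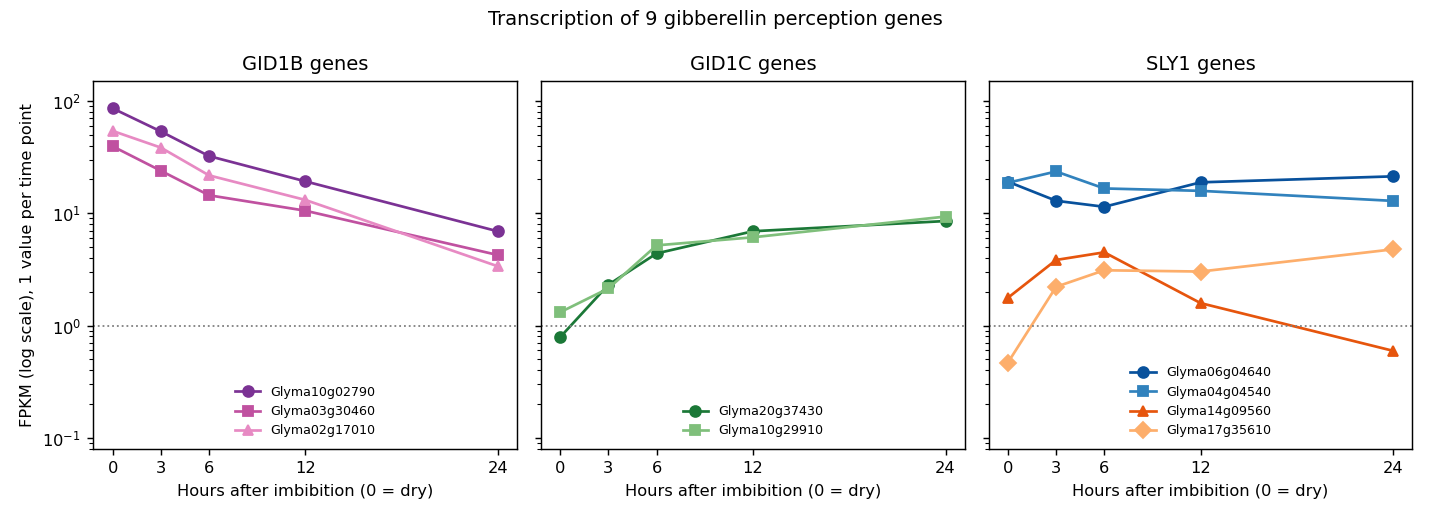
FPKM (log scale) of each of the 9 genes against hours after imbibition, with GID1B, GID1C and SLY1 genes in separate panels, each point being the authors' single value for a time point and the dotted line marking 1 FPKM. The 3 GID1B lines start between 39.3 and 85.7 FPKM and end between 3.36 and 6.89 FPKM, the GID1C lines go up to 8.51 and 9.33 FPKM, and the SLY1 genes form a high and a low pair.

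The opposite courses of the receptor genes changed the make-up of their summed transcription. FPKM are per length of transcript, so levels of different genes can be added within a time point, and a common scaling of a time point does not touch such shares. The GID1B sum was 178.9, 115.6, 68.4, 42.8 and 14.5 FPKM at 0, 3, 6, 12 and 24 h. Over the same time points the GID1C sum was 2.11, 4.45, 9.56, 13.0 and 17.8 FPKM. GID1B genes thus held 98.8% of the summed GID1 FPKM in dry seeds, 96.3% at 3 h, 87.7% at 6 h, 76.7% at 12 h and 44.8% at 24 h. The order of the subfamilies changed between 12 h, where GID1B was 3.29 times GID1C, and 24 h, where GID1C was 1.23 times GID1B. Per gene, with 3 GID1B against 2 GID1C genes, the GID1B share at 24 h was 35.1%.

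All 5 GID1 genes together had 181.0 FPKM at 0 h and 32.3 FPKM at 24 h, 5.60 times less, and 3.23 times less when each time point was set to the same total. The gain of the GID1C genes in FPKM was small beside the loss of the GID1B genes.

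Within GID1B the genes kept nearly constant proportions until 12 h. Glyma10g02790 held 44.8% to 47.9% of the GID1B sum at every time point. Glyma02g17010 held 30.1% in dry seeds and 23.2% at 24 h, and Glyma03g30460 held 22.0% and 29.3%. The profiles of Glyma10g02790 and Glyma02g17010, each centred on its mean, differed by a root mean square of 0.14 on the log2(FPKM + 1) scale over the 5 time points. Among expressed genes, 115 (0.345%) were nearer to Glyma10g02790 than Glyma02g17010 was. For the GID1C pair the difference was 0.19, and 307 genes (0.920%) were nearer to Glyma20g37430 than its paralog.

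**Figure D2:**
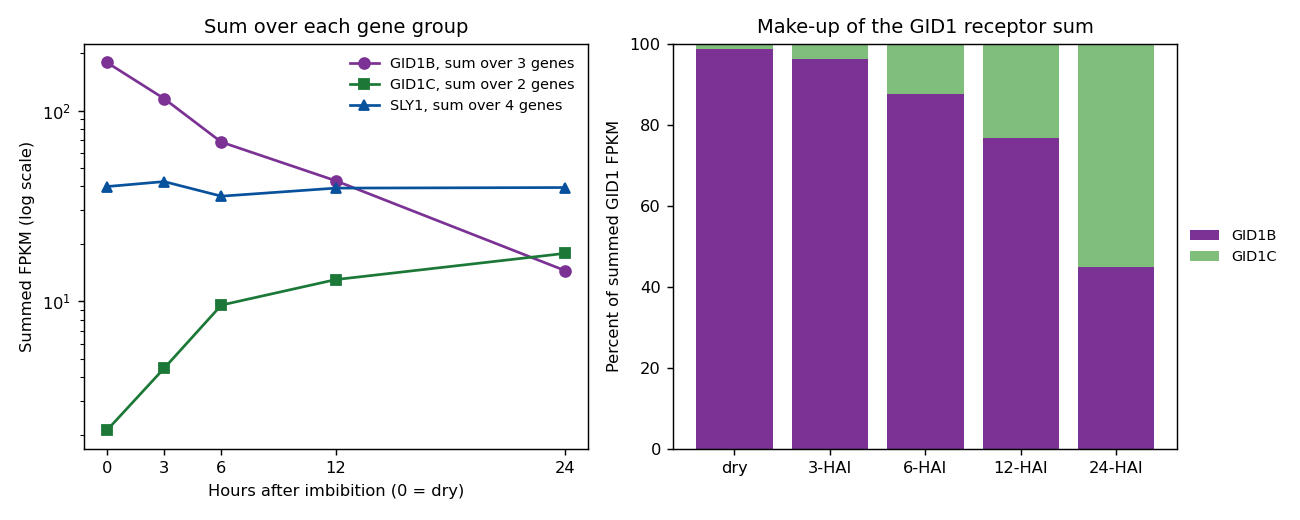
Left, FPKM summed over the GID1B, GID1C and SLY1 genes (log scale) against hours after imbibition; right, stacked bars of the percent of the summed GID1 FPKM held by GID1B and GID1C at each time point. The GID1B share goes from 98.8% in dry seeds to 44.8% at 24 h, while the SLY1 sum as deposited stays between 35.6 and 42.4 FPKM.

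The 4 SLY1 genes fell into a high and a low pair. Glyma06g04640, on chromosome 6 from 3287831 to 3289355, had 19.1, 12.9, 11.4, 18.8 and 21.3 FPKM at 0, 3, 6, 12 and 24 h. Glyma04g04540, on chromosome 4 from 3395831 to 3397238, had 18.7, 23.5, 16.6, 15.8 and 12.9 FPKM. Of the 9 genes these were the 2 that stayed above 10 FPKM throughout, and the 2 that passed the 2.4-fold limit in none of the 5 comparisons, as was the case for 33.8% of expressed genes.

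The high pair did not move in parallel. The ratio of Glyma06g04640 to Glyma04g04540 was 1.02 in dry seeds, 0.549 at 3 h, 0.687 at 6 h, 1.19 at 12 h and 1.65 at 24 h. Between dry seeds and 24 h the log2(FPKM + 1) change of Glyma06g04640 was 0.15, which turned to -0.28 with median-ratio scaling, and that of Glyma04g04540 was -0.50, which turned to 0.24 when each time point had the same total. No direction can be given for either.

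In the low pair both genes were higher at 3 h and 6 h than in dry seeds, and they parted after 6 h. Glyma14g09560, on chromosome 14 from 7642594 to 7643598, had 1.77, 3.83, 4.48, 1.58 and 0.595 FPKM at 0, 3, 6, 12 and 24 h. It fell 2.83-fold from 6 to 12 h and 2.66-fold in the last interval, where 3.24% and 9.13% of expressed genes fell. Glyma17g35610, on chromosome 17 from 39590487 to 39592081, had 0.468, 2.21, 3.10, 3.02 and 4.77 FPKM. It rose 4.72-fold from 0 to 3 h, as did 11.5% of expressed genes, and was 10.2 times as high at 24 h as in dry seeds, a comparison in which 38.5% rose. The last ratio rests on a dry value under 1 FPKM and was 3.38 after quantile normalization and 17.6 with equal totals. Glyma14g09560 was 3.77 times Glyma17g35610 in dry seeds and 1.44 times at 6 h, and at 12 h and 24 h it was 0.524 and 0.125 times its partner. With 1 FPKM added to both values, the falls of Glyma14g09560 and the first rise of Glyma17g35610 no longer passed the limit. The rise of Glyma17g35610 between dry seeds and 24 h passed it under each alternative run.

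The summed SLY1 transcription varied little in the values as deposited. It was 40.0, 42.4, 35.6, 39.2 and 39.5 FPKM at 0, 3, 6, 12 and 24 h, a range of 1.19-fold. With each time point set to the same total, the range was 1.86-fold, with the lowest sum in dry seeds. Glyma06g04640 held 30.4% of it at 3 h and 53.8% at 24 h, while Glyma04g04540 held 55.4% and 32.6%. The low pair held its largest part at 6 h, with 12.6% for Glyma14g09560 and 8.72% for Glyma17g35610. The ratio of the GID1 sum to the SLY1 sum was 4.53 in dry seeds, 2.83 at 3 h, 2.19 at 6 h, 1.42 at 12 h and 0.819 at 24 h.

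**Figure D3:**
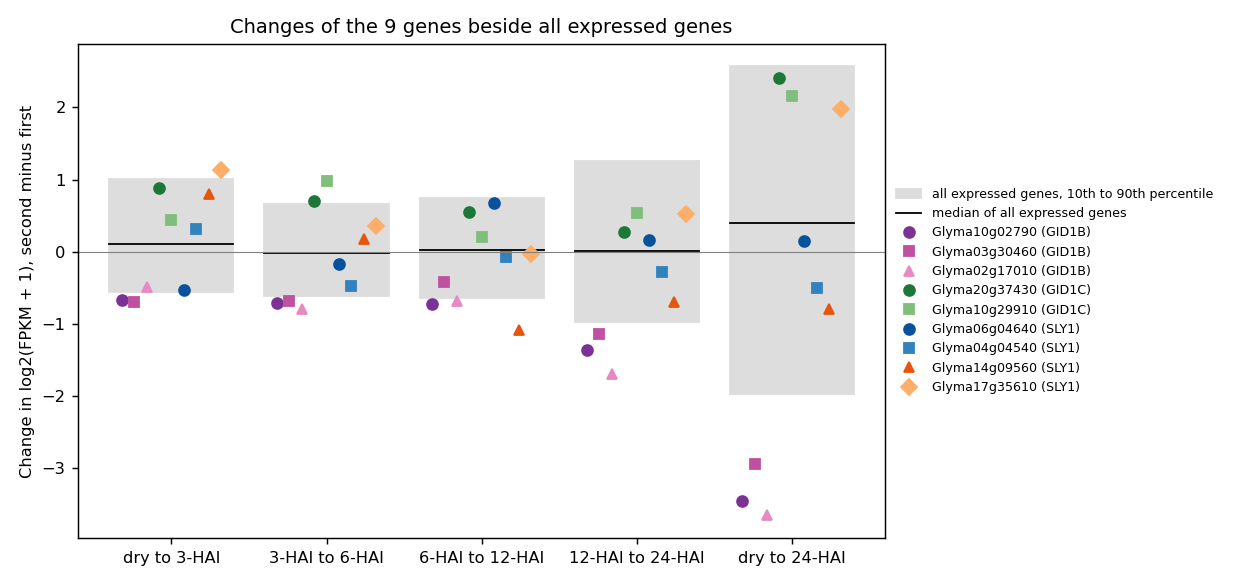
Change in log2(FPKM + 1), second minus first time point, of each of the 9 genes (points) for the 4 intervals and for 0 to 24 h; grey boxes span the 10th to 90th percentile of the 33358 expressed genes and black lines mark their median. From 0 to 24 h the GID1B genes lie under the box at -3.65 to -2.94, the GID1C genes lie inside it at 2.16 and 2.41, and the SLY1 genes lie inside it.

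The place of a gene among all expressed genes gives its level without reference to scaling between time points. Of these 33358 genes, 24082 were at 1 FPKM or more in dry seeds and 31081 at 24 h. The place of a low gene depends on this shift as well as on its own level. Glyma10g02790 lay at or above 94.5% of expressed genes in dry seeds and 52.3% at 24 h. For Glyma02g17010 these shares were 90.6% and 30.7%, and for Glyma03g30460 they were 87.1% and 37.3%. Glyma20g37430 moved the other way, from 25.3% to 59.1%, and Glyma10g29910 from 31.5% to 61.9%. Glyma06g04640 lay between 65.7% at 6 h and 83.0% at 24 h, and Glyma04g04540 kept between 71.4% and 78.5%. In the low SLY1 pair, Glyma14g09560 went from 35.5% to 3.93% and Glyma17g35610 from 20.3% to 40.6%.

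The members also differed in the size of their genes. The 5 GID1 genes span 2626 to 2868 bases and the 4 SLY1 genes span 1005 to 1595 bases, with the shortest span in Glyma14g09560. Chromosome 10 carries a GID1B and a GID1C gene, and the other 7 genes each lie on a chromosome of their own.

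Other genes of gibberellin and abscisic acid action were read at the same time points: 2 GA3ox1 genes, whose enzyme makes active gibberellin, 2 genes for ABI3, a transcription factor of abscisic acid responses, 2 for AIP2, the ligase that marks ABI3 for destruction, and 2 CYP707A genes, whose enzymes inactivate abscisic acid. Of these 8 genes, 3 rose and 3 fell between dry seeds and 24 h, beside 38.5% and 21.7% of expressed genes, so the share that rose was close to the background. The AIP2 genes passed the limit in neither direction over that span. From 0 to 3 h, where 11.5% of expressed genes rose, Glyma17g33631 rose 2.43-fold, just over the limit. Glyma14g12380, the other AIP2 gene, went up 2.04-fold, under it. DELLA genes were not analysed here.

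The GA3ox1 genes rose, as did the GID1C genes. Glyma13g43850 had 0.855, 6.93, 13.4, 26.0 and 28.4 FPKM at 0, 3, 6, 12 and 24 h. Glyma15g01500 had 0.294, 0.642, 4.45, 16.2 and 5.53 FPKM, with its highest value at 12 h. At 6 h both GA3ox1 genes were over 15 times their dry values (1562% and 1510%), whereas Glyma20g37430 was at 555% and Glyma10g29910 at 393% of theirs. At 3 h the order was not the same, with Glyma15g01500 at 218% and Glyma20g37430 at 292%. All these percents rest on low dry values: 0.294 FPKM in Glyma15g01500, 0.855 in Glyma13g43850, 0.791 in Glyma20g37430 and 1.31 in Glyma10g29910.

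ABI3 and CYP707A2 transcripts were abundant in dry seeds and low at 24 h, like those of GID1B, but at 6 h they stood higher relative to their dry values. The ABI3 gene Glyma18g38490 first went up, to 181% at 3 h. Whether transcripts were kept or newly made was not tested. At 6 h the GID1B genes had 36.7% to 40.2% of their dry values, the ABI3 genes Glyma08g47240 and Glyma18g38490 had 82.1% and 159%, and the CYP707A2 gene Glyma09g41960 had 72.7%. By 24 h the ABI3 genes were at 4.35% and 9.02% and Glyma09g41960 was at 2.82%, beside 6.24% to 10.8% for GID1B. The other CYP707A gene, the CYP707A1 gene Glyma16g20490, went the opposite way. It had 0.026, 0.020, 0.160, 3.04 and 14.2 FPKM at 0, 3, 6, 12 and 24 h. It rose from 6 to 12 h, as did 7.53% of expressed genes, and from 12 to 24 h, as did 16.4%. These differences in course could not be tested, because each time point has 1 value.

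**Figure D4:**
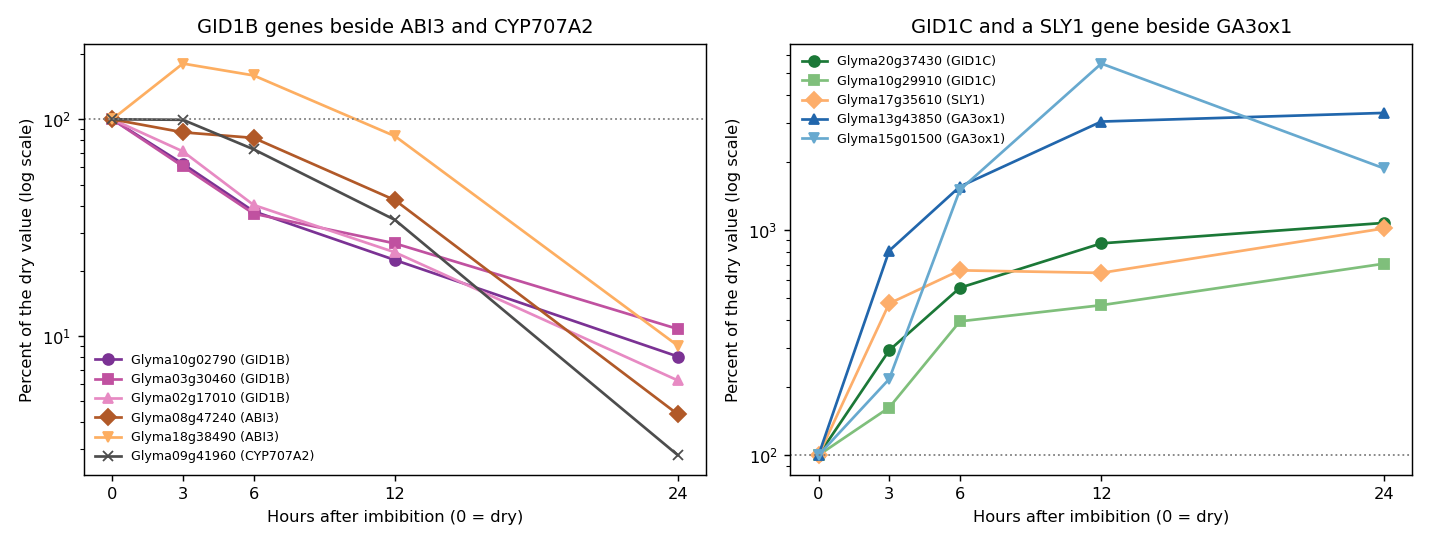
FPKM as a percent of the dry value (log scale) against hours after imbibition, for the GID1B genes beside ABI3 and CYP707A2 genes (left) and for the GID1C genes and the SLY1 gene Glyma17g35610 beside GA3ox1 genes (right); the dotted line marks 100%. At 6 h the GID1B genes are at 36.7% to 40.2% and the ABI3 and CYP707A2 genes at 72.7% to 159%.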

How the data were processed

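The authors removed the first bases of each read with Trimmomatic 0.30, mapped the reads to version 1.1 of the *G. max* genome with TopHat 2.0.9 and Bowtie 2.1.0, and estimated FPKM with Cufflinks 2.1.1. Per time point, the FPKM they deposited combine both libraries in a way that the sources used here do not state. Columns of no known time point numbered 0. Another 647 genes, none of them a member, appear on both strands and were represented by their higher entry.

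Python 3.11.15 was used, with pandas 2.3.3, numpy 2.4.6 and, for plots, matplotlib 3.10.9. Without replicate values no test was run. A call needs a ratio of at least 2.4, the smallest change in the study's own calls, with no pseudocount, and 1 FPKM at the higher value. The study's calls also had to pass a significance test in Cuffdiff. That condition was not applied here, so the calls and shares given here are not those of the study. Log2 changes use a pseudocount of 1. The computation of calls and profile distances was checked on simulated data whose planted changes lay well above the limit. That check does not bear on calls near the limit or on low values. Alternatives were 3 other scalings, fold limits of 2, 3 and 4, pseudocounts of 1 and 0.1, no minimum or 2 FPKM, and summed strand entries. The named genes are the 9 members, the 8 pathway genes and the 3 genes of at least 10 FPKM nearest to each subfamily profile. Members and lists were chosen with earlier results of these data known. GID1, SLY1 and pathway names are those of the study, because 0 identifiers matched the RefSeq gene table (Glycine_max_v4.0).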

Additional observations from a re-analysis of the deposited data

How the results depend on the processing

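No paired analysis was possible because the table holds 1 value per gene and time point, and leaving out a replicate was not possible for the same reason. The calls between dry seeds and 24 h of 3 GID1B genes down, 2 GID1C genes up and 1 SLY1 gene up held under all 11 alternatives. Of 30 counts of members called, 20 were 0 and stayed at 0. The other 10 had 110 values under the alternatives, of which 81 stayed within 1.5 times the main count and 29 moved, and the cause of these was not tested. From 0 to 3 h the GID1C count went from 1 to 0 with median-ratio scaling, quantile normalization, fold limits of 3 and 4 and a pseudocount of 1, and the SLY1 count from 1 to 0 with quantile normalization and a pseudocount of 1 and to 2 with equal totals and a fold limit of 2. From 3 to 6 h the GID1C count of 1 went to 0 with quantile normalization, fold limits of 3 and 4 and pseudocounts of 1 and 0.1. The SLY1 counts of 1 down (Glyma14g09560) went to 0 in each of its 3 comparisons with fold limits of 3 and 4 and a pseudocount of 1, with equal totals for 6 to 12 h and 0 to 24 h, and with a minimum of 2 FPKM for the last interval and 0 to 24 h. The GID1B count of 3 down from 12 to 24 h was 1 with a 3-fold and 0 with a 4-fold limit, and 2 with a pseudocount of 1. The GID1B share of GID1 FPKM was 97.2%, 94.8%, 88.2%, 79.8% and 40.2% from 0 to 24 h after quantile normalization, and 98.3%, 94.5%, 82.7%, 68.7% and 35.1% as a mean per gene. The log2 change between dry and 24 h turned to -0.28 for Glyma06g04640 with median-ratio scaling and to 0.24 for Glyma04g04540 with equal totals, and kept its sign in the other 34 of 36 values. The median log2 change of all expressed genes in that comparison was 0.39 as deposited, 0.05 with median-ratio scaling, 0.03 after quantile normalization and 0.98 with equal totals. Chosen after the values were seen were the ratios under these scalings: the range of the SLY1 sum was 1.19-fold as deposited and 1.48-fold, 1.26-fold and 1.86-fold with median-ratio scaling, quantile normalization and equal totals, and the GID1 sum was 5.60, 7.64, 4.98 and 3.23 times lower at 24 h.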

Other observations

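The SLY1 gene Glyma17g35610 had a profile nearer to both GID1C genes than to any other SLY1 gene. Its centred log2(FPKM + 1) values differed by a root mean square of 0.32 from Glyma10g29910 and 0.33 from Glyma20g37430, against 0.75 from Glyma06g04640, 0.85 from Glyma04g04540 and 1.01 from Glyma14g09560. Over the 5 time points its Pearson correlation was 0.92 with Glyma10g29910 and 0.95 with Glyma20g37430. Nearer to it than these were 2178 (6.53%) and 2402 (7.20%) of expressed genes, so such a rising profile was common. With values of 0.468 to 4.77 FPKM, its differences from other genes are shrunk by the 1 FPKM added. Among pairs of SLY1 genes, the high gene Glyma06g04640 and the low gene Glyma14g09560 had the lowest correlation, -0.96, in the values as deposited. By root mean square difference they were 0.97 apart, less than the 1.01 between Glyma14g09560 and Glyma17g35610. Correlations under other scalings were not computed, and no direction can be given for Glyma06g04640 between dry seeds and 24 h.

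Among 17844 genes that reached 10 FPKM, members aside, the profile of the GID1B sum was nearest to those of Glyma05g01436 (root mean square difference of 0.031), Glyma09g37076 (0.036) and Glyma12g08870 (0.037). These distances are on the log2(FPKM + 1) scale, which shrinks differences among low values: Glyma05g01436 had 17.4 FPKM in dry seeds and 0.628 FPKM at 24 h. Glyma09g37076 also had similar levels to Glyma10g02790, with 87.2, 56.8, 32.8, 20.9 and 7.10 FPKM at 0, 3, 6, 12 and 24 h. Nearest to the GID1C sum were Glyma09g02140 (0.056), Glyma18g04170 (0.057) and Glyma19g16660 (0.063). The neighbours Glyma20g36040 and Glyma20g36050 (0.034), which share all 5 values, and Glyma17g35340 (0.039) were nearest to the SLY1 sum.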
